A study of Mus musculus with 4 samples.

Results

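TFE3 peaks of starved mouse embryonic fibroblasts were set against TFE3 peaks of the same cell type in full medium. The members are all peaks of these 2 lists, 1712 from starvation and 422 from control, or 2134 of the 4910 peaks in the series. A peak was called shared when it overlapped a peak of the other list by at least 1 bp, gained when it was in the starvation list without such a partner, and lost when it was in the control list without one. The cells are labelled CRL-2977, a line of mouse embryonic fibroblasts. Control cells stayed in Dulbecco's medium with 10% fetal bovine serum, and starved cells spent 2 hours in Earle's balanced salt solution, which holds no amino acids or serum. Chromatin was fixed in 1% formaldehyde, precipitated with an antibody against TFE3 and sequenced (ChIP-seq). A library made with rabbit IgG from the same cell type was the background of both lists, and a tunicamycin library of the series was not compared here. Each condition had 1 TFE3 library, so no test between conditions was possible and every difference below is between 2 libraries. Peak lists carry no expression markers, so the labelled cell type was not checked.

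TFE3 belongs, with MITF and TFEB, to a family of transcription factors that bind DNA through a basic region and pair through a helix-loop-helix and a leucine zipper. In fed cells the kinase complex mTORC1, active on the lysosome surface, keeps TFE3 in the cytoplasm by phosphorylation, and on nutrient loss the protein moves to the nucleus. There the family binds E-boxes, above all the core CACGTG, and is best known for switching on genes of lysosomes, autophagy and the mTORC1 pathway itself.

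Positions of peaks are in the mouse build mm9. A gene is named for a peak only where the gene's start in mm9 is well known and lies within 1 kb of the peak, to the nearest kb. The names come from general knowledge of that build, no mm9 annotation being used here, and a peak near one start can also lie near the start of a neighbouring gene. Of 42 genes in 4 lists, 20 were placed in this way: 12 of 20 for lysosome and autophagy, 2 of 7 for mTORC1 and nutrient sensing, 3 of 10 for the integrated and endoplasmic reticulum stress response, and 3 of 5 for damage and death. A further 2 genes, Tsc1 and Gabarap, were placed after their peaks had been seen among the strongest. Genes were placed by having a peak, so nothing is said of the other genes of the lists, and the counts per list describe only where the peaks of placed genes fell.

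RefSeq promoters were at hand for 18 of the 22 placed genes, in build GRCm38.p6, whose coordinates cannot be set beside mm9. In the 250 bases before the start, CACGTG (its own reverse complement) was found for 8 of the 18 genes, Bax, Ctsa, Gla, Lamp1, Mcoln1, Rragc, Sumf1 and Ube2b, and in 6.02% of all 32851 promoters of that length. The longer TCACGTGA, which contains it, was found for 6 of the 18 and in 0.785% of all promoters. By list, CACGTG was in 3 of 11 genes whose peak was gained and 5 of 7 whose peak was shared. The 18 genes were placed by having a TFE3 peak and come partly from pathways the family is known to act on. Their share beside that of all promoters is therefore a description and not a test. A match is a description of the letters and not a mapped binding site. The 250 bases are printed for 3 genes with a gained peak (Mcoln1, Lamp1, Rragc) and 3 with a shared peak (Bax, Ube2b, Gla), to show where the core lies before these starts and where it is repeated, with CACGTG in capitals. They lie at chr8:3500269-3500518 (+), chr8:13158911-13159160 (+), chr4:123917183-123917432 (+), chr7:45466899-45467148 (-), chr11:52000787-52001036 (-) and chrX:134601006-134601255 (-), and each ends at the base before the gene start.
Mcoln1: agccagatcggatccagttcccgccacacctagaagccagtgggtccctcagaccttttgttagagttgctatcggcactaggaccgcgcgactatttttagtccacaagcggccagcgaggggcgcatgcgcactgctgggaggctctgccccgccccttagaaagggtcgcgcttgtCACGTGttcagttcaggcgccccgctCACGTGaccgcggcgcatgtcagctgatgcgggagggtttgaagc
Lamp1: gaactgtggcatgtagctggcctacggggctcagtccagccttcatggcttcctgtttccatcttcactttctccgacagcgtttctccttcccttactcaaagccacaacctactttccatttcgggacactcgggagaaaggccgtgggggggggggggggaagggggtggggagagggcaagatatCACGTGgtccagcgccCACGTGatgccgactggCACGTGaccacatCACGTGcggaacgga
Rragc: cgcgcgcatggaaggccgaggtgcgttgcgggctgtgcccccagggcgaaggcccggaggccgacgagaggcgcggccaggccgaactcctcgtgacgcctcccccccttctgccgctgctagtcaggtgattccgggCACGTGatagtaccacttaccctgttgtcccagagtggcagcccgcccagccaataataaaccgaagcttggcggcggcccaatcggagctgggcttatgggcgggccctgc
Bax: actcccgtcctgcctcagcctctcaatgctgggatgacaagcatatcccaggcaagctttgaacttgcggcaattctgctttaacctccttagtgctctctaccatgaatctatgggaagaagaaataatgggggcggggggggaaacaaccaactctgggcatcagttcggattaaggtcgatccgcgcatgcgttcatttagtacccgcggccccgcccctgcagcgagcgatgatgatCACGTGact
Ube2b: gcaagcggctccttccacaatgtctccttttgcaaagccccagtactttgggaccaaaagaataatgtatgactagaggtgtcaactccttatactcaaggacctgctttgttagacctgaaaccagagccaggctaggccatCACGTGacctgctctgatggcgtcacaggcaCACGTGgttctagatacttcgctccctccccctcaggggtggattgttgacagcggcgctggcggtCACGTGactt
Gla: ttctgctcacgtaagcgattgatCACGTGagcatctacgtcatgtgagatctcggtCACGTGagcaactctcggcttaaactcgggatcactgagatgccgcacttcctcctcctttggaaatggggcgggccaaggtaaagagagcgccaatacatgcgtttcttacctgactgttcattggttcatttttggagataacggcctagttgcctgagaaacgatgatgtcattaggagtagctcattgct
Lamp1 held 4 copies of the core within the last 61 bases, Ube2b held 3, Mcoln1 and Gla held 2 each, and Bax and Rragc held 1. In Bax the core began 9 bases before the start and in Gla 194 and 227 bases before it.

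The starvation list held many more called TFE3 sites, and most of them had no overlapping peak in the control list. Of the 1712 starvation peaks, 1511 were gained (88.3%, exact 95% interval 86.6 to 89.7), and of the 422 control peaks 220 were lost (52.1%, 47.2 to 57.0). With the starvation list cut to its 422 peaks of highest score, as many as control holds, 261 of them were gained and 38.2% were found in control. No gained peak was among the 25 starvation peaks of highest score, 1 was among the top 50 and 10 among the top 100. In the control list 3 of the top 25 peaks were lost, 7 of the top 50 and 24 of the top 100. The score is the authors', 10 times the −log10 q. Few gained or lost peaks lay just past the edges of a peak of the other list. Only 7 of the 1511 gained peaks and 5 of the 220 lost peaks were within 5 kb of a peak of the other list. The median gap was 2051 kb for gained and 593 kb for lost peaks. These medians depend on how many peaks the other list holds, and no baseline was computed for them. At the limit of the rule, the smallest overlap counted as shared was 36 bp, on chromosome 13 at 60511350 to 60511732 in starvation, and the smallest gap of an unshared pair was 91 bp.

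Signal was compared as a tag density. The number of TFE3 tags (sequenced fragments) over each summit was recovered from the authors' fold and p-value, scaled to the depth of the IgG library and divided by the fragment length of the list, 149 bp in control and 193 bp in starvation. The starvation library was 1.05 times as deep as control, and the genome-wide IgG background came to 12.0 tags per kb in both lists. Intervals on tags, densities and their ratios are 95% exact Poisson intervals and cover counting error only, since reads copied in amplification are not independent. Gained peaks had a median density of 115 tags per kb (interquartile range 99.3 to 144), from a median of 36 tags, and shared starvation peaks had 243 (167 to 311), from 76 tags. In the control list the classes were closer, with a median of 122 (108 to 140) and 28 tags for lost peaks and 151 (119 to 191) and 34.5 tags for shared ones. The authors' median fold over background was 6.18 for gained and 11.6 for shared starvation peaks, and 5.88 for lost and 6.86 for shared control peaks. Gained peaks were also narrower than shared starvation peaks, at a median of 256 bp against 375 bp, whereas lost and shared control peaks had medians of 215 and 219.5 bp.

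**Figure D1:**
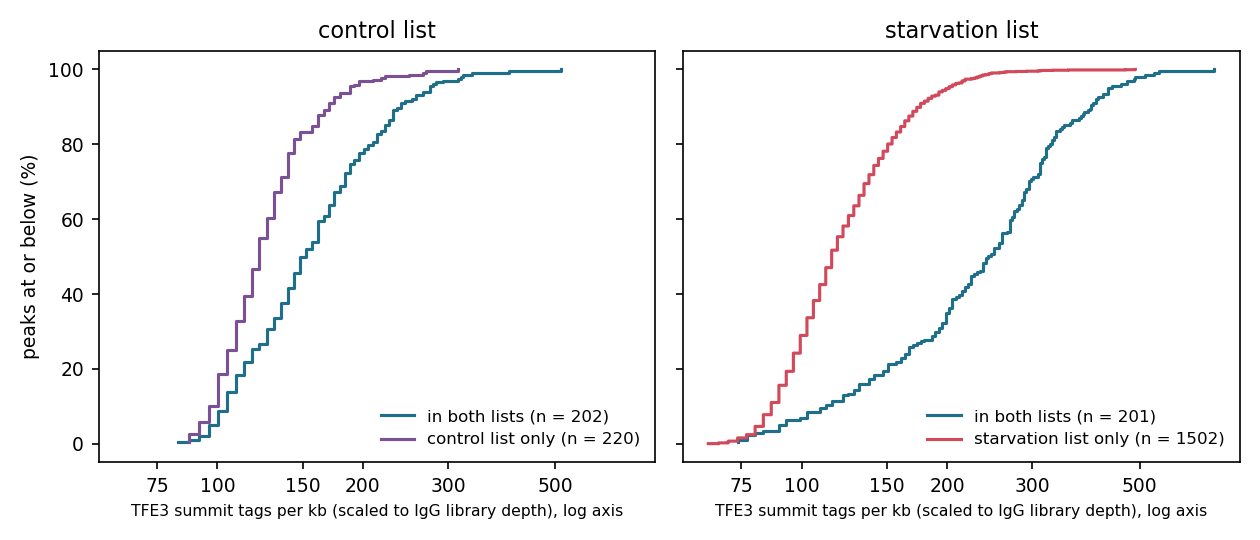
Cumulative share of peaks (y axis, %) against TFE3 tag density at the summit (x axis, log scale, tags per kb scaled to IgG depth) for shared peaks and for peaks of one list only, with control at left and starvation at right. The starvation curves lie far apart, with medians of 115 and 243 tags per kb, and the control curves lie closer, at 122 and 151.

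Overlap was highest among the peaks of most signal in both lists. With each list cut by density into 10 bins of nearly equal size, the top starvation bin had a median of 277 tags per kb, and 119 of 170 of its peaks were found in control (70.0%, 62.5 to 76.8). In the next bin, with a median of 186, it was 31 of 170 (18.2%, 12.7 to 24.9), and in the lowest bin 7 of 171 (4.09%, 1.66 to 8.25). Control peaks were found in starvation in 36 of 42 cases in their top bin (85.7%, 71.5 to 94.6) and in 15 of 43 in the lowest (34.9%, 21.0 to 50.9).

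**Figure D2:**
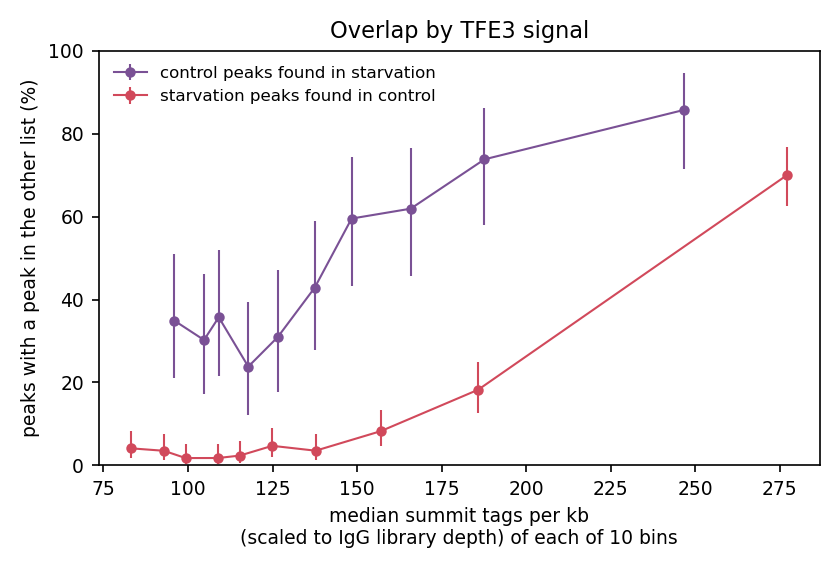
Share of peaks with a peak in the other list (y axis, %, bars are exact 95% intervals) against the median density of each of 10 bins of a list (x axis). Starvation peaks stay at or below 8.24% found in control in the lower 8 bins and reach 70.0% in the top one, while control peaks run from 23.8% to 85.7%.

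To see what absence from a list can mean at these depths, the tag number was computed that the other list would have needed for a call, taken as its lowest called −log10 p (5.85 in control, 5.27 in starvation) at the local IgG background of the site. A control summit needed a median of 17 tags at gained sites, and a starvation summit a median of 22 tags at lost sites. These limits are computed ones and are used in all that follows. No called control peak held fewer than 19 tags, so the real control limit can be higher than computed. Counts of peaks that reach it and ratios to the highest uncalled density can then be too large. Had density been equal in both libraries, 1451 of the 1502 gained peaks with a recovered tag number would have reached the control limit (96.6%, 95.6 to 97.5), with a median of 26.4 tags expected. With each peak at its lower Poisson limit the number was 744 (49.5%). All 220 lost peaks would have reached the starvation limit at equal density. Without division by fragment length, 204 of them and all 1502 gained peaks would have reached the limit of the other list. With the division, 148 lost peaks (67.3%) would have done so at the lower Poisson limit. Among the 920 starvation peaks that passed even at that limit, 176 were shared (19.1%, 16.6 to 21.8), and among the 323 such control peaks 175 were (54.2%, 48.6 to 59.7). The density of a gained peak was over 2 times the highest that control would have left uncalled at 257 of 1502 sites (17.1%), and over 3 times at 16. For lost peaks these were 71 and 5 of 220. Peaks near a threshold are called partly by chance counts in their own library, and this was not corrected for.

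The strongest gained site spanned 87981503 to 87981905 of chromosome 3. Its starvation summit held 91 tags (73.3 to 112) at 17.2-fold. By the computed limit, at most 16 tags would have gone uncalled there in control. The starvation density of 292 tags per kb was 4.17 times that level. The next site, chromosome 15 at 81353496 to 81353965, held 98 tags at 14.4-fold, and the one after it, chromosome 12 at 80397066 to 80397543, held 83 tags at 15.7-fold. These 3 sites are named by position only. The other sites without a placed gene among the 10 of highest score were on chromosomes 4 (from 40216292), 15 (from 3945458), 2 (from 163245361), 1 (from 87520522) and 11 (from 93829473). Over the 10 sites tags ran from 76 to 146 and folds from 6.08 to 17.2, and the density was 2.44 to 4.17 times the highest uncalled one. The site on chromosome 1 combined the lowest fold, 6.08, with the most tags, 146, on a local IgG background of 72.5 tags per kb, against 12.0 to 20.7 at the other 9.

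**Figure D3:**
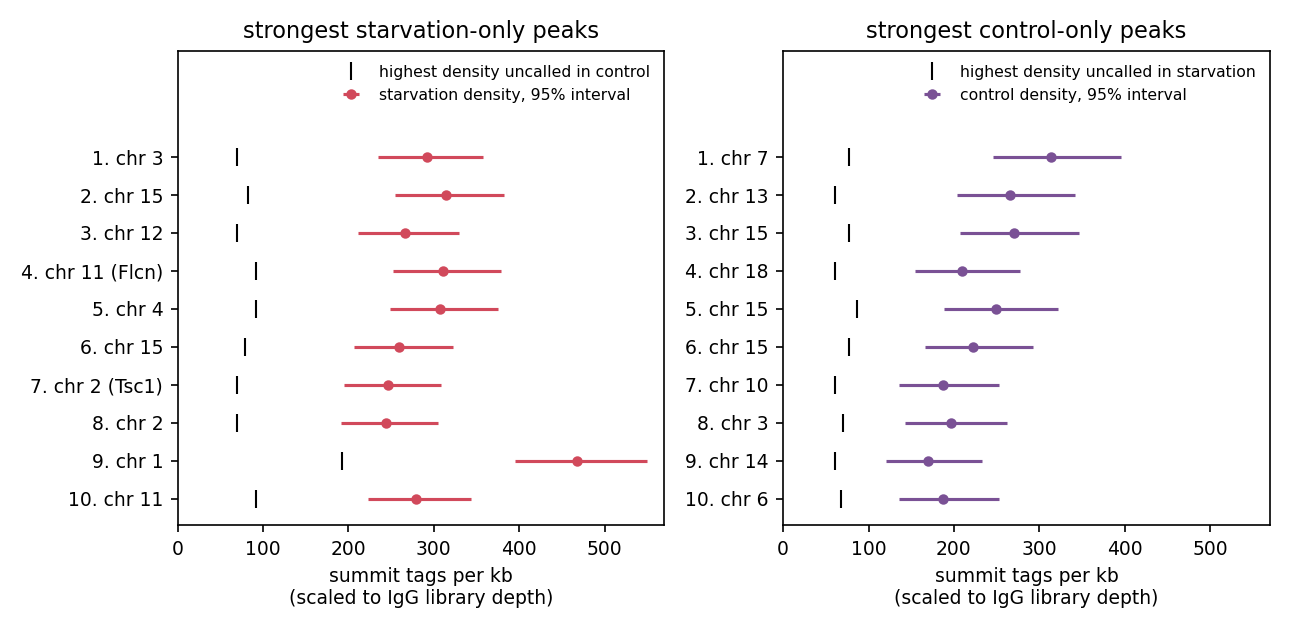
Tag density at the summit (x axis, tags per kb scaled to IgG depth, bars are 95% Poisson intervals) of the 10 gained peaks (left) and 10 lost peaks (right) of highest score. A tick marks the highest density that the other list would have left uncalled by the computed limit. All 20 intervals lie above their tick, with ratios of 2.44 to 4.17 for gained and 2.79 to 4.37 for lost sites.

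Among these 10 sites, 1 lay at a gene of the mTORC1 and nutrient sensing list, Flcn, and 1 at Tsc1, which was placed after its peak had been seen. The peak at the start of Flcn, chromosome 11 at 59623090 to 59623770, ranked 4 among gained peaks. Flcn encodes folliculin, which with its partner proteins acts on the Rag GTPases that bring mTORC1 to the lysosome. Its starvation summit held 97 tags (78.7 to 118) with a fold of 12.2, and control had no peak, where up to 21 tags would have gone uncalled. The peak of Tsc1, which encodes hamartin, an inhibitor of mTORC1 signalling, was on chromosome 2 at 28496393 to 28496858 and held 77 tags (60.8 to 96.2) at 14.6-fold, with up to 16 tags uncalled in control. Rragc, which encodes the Rag GTPase C, also had a gained peak, on chromosome 4 at 123594270 to 123594789, with 63 tags (48.4 to 80.6) and a fold of 12.0. At each of these 3 starts the starvation density was 2.89 to 3.53 times the highest that control would have left uncalled. Both placed genes of the mTORC1 and nutrient sensing list, Flcn and Rragc, had a gained peak, beside 88.3% gained among all starvation peaks. Being gained therefore does not set them apart from other starvation peaks.

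Of the 12 placed lysosome and autophagy genes, 9 had a gained peak and 3 a shared one, beside 88.3% gained among all starvation peaks, so the gained share of these genes was not above that of the list. The gained peaks were of middle and low rank in the starvation list, from 211 for Lamp1 to 1609 for Neu1. Lamp1, a main glycoprotein of the lysosome membrane, had 57 tags (43.2 to 73.9) and a fold of 10.6 on chromosome 8 at 13159091 to 13159318. Mcoln1, a calcium channel of that membrane, had 53 tags (39.7 to 69.3) and a fold of 10.2 at 3500301 to 3500569 of the same chromosome. The 3 placed subunits of the proton pump that acidifies lysosomes had peaks of similar height: Atp6v1h had 47 tags and a fold of 9.04, Atp6v1b2 had 43 tags and 6.90, and Atp6v0d1 had 42 tags and 7.90. Hexa, a subunit of lysosomal hexosaminidase, had 55 tags and a fold of 9.46. Map1lc3b, which encodes the autophagosome protein LC3B, had 2 starvation peaks within the window, the stronger with 50 tags and a fold of 6.38. The protease gene Ctsb, with 31 tags, and the sialidase gene Neu1, with 27, were near the limit of detection: at equal density 22.8 and 19.8 tags would have been expected in control, where 17 and 19 were needed. At their lower Poisson limits the expected numbers were 15.5 and 13.1, so a difference at these 2 starts was not detectable at this depth.

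Of the stress response genes, Ddit3, which encodes CHOP, had a gained peak on chromosome 10 at 126726359 to 126726694, with 61 tags (46.7 to 78.4) and a fold of 9.04. Chac1, a glutathione-degrading enzyme, had a weak one with 32 tags and a fold of 5.73. At its lower Poisson limit, equal density would have given 16.1 tags in control, under the 19 needed. Atf4, the transcription factor at the centre of the integrated stress response, had the highest score of the starvation list and was shared. Its peak held 47 tags in control (34.5 to 62.5) and 153 in starvation (130 to 179), with folds of 9.45 and 23.7, and ranked 38 and 1 in the lists. Its density ratio of starvation to control was 2.39 (1.71 to 3.39).

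Shared sites were mostly stronger in starvation. Over the 202 shared pairs the median density was 151 tags per kb in control and 245 in starvation, and the median ratio within a pair was 1.59 (interquartile range 1.32 to 1.82, range 0.384 to 3.45). The ratio was above 1 in 172 pairs and below 1 in 30. Its interval lay wholly above 1 in 122 pairs and wholly below 1 in 11, and 33 pairs were past 2-fold up against 5 past 2-fold down. The authors' folds gave a median ratio of 1.69. Across pairs, control and starvation densities had a Pearson correlation of 0.682 and a Spearman correlation of 0.599 (n = 202 pairs, which share the 2 libraries and the IgG background). Without division by fragment length the median ratio was 2.06 (interquartile range 1.71 to 2.35, range 0.497 to 4.47), with 183 pairs above 1 and 19 below. The size of the ratio and the counts on either side of 1 thus depend on how the unequal fragment lengths are treated. The same holds for the counts of intervals and of pairs past 2-fold, which are given only with the division.

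**Figure D4:**
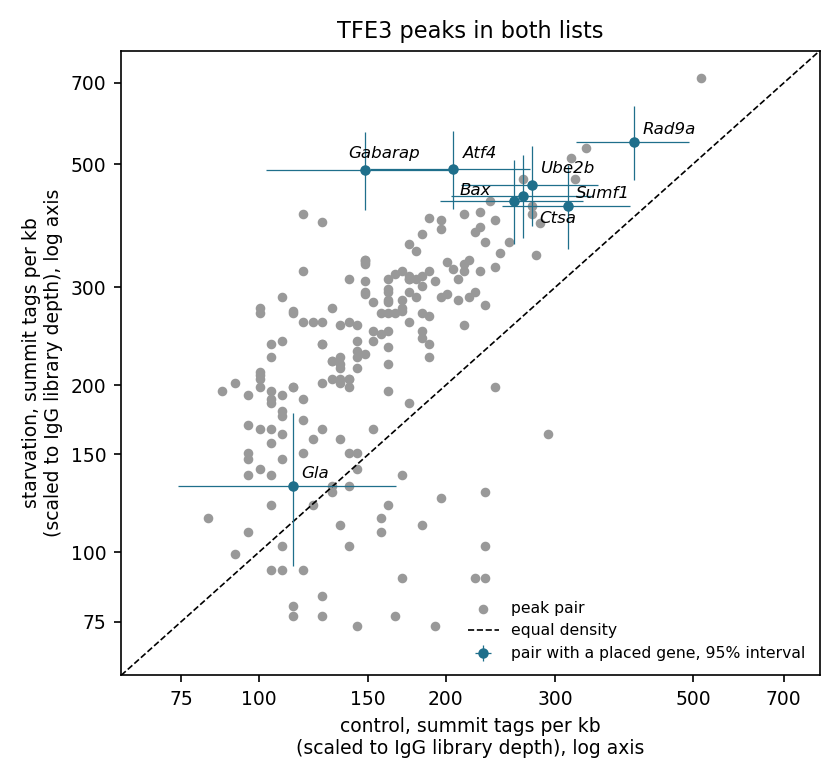
Starvation density (y axis) against control density (x axis) for the 202 shared pairs, both in summit tags per kb scaled to IgG depth on log axes, with 95% Poisson intervals for the 8 pairs at placed genes. Most points lie above the line of equal density (172 of 202), and the other 30 lie below it.

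The pairs with the best mean rank had ratios below that of Atf4. Rad9a, a subunit of a DNA damage checkpoint clamp, ranked first in control and 3 in starvation, with 92 tags (74.2 to 113) and 171 tags (146 to 199) and a ratio of 1.36 (1.05 to 1.78). The second, on chromosome 6 at 54816662 to 54817197, had 77 and 167 tags with 1.59 (1.21 to 2.11). Ctsa, a lysosomal carboxypeptidase, had 61 and 137 tags and a ratio of 1.65 (1.21 to 2.27). Ube2b, a ubiquitin-conjugating enzyme that acts in DNA repair, had 63 and 143 tags with 1.67 (1.23 to 2.28). Bax, the pro-apoptotic member of the BCL2 family, had 59 and 134 tags with 1.67 (1.22 to 2.30). For Sumf1, which encodes the enzyme that activates sulfatases, the ratio was 1.34 (0.994 to 1.81), and for the galactosidase gene Gla, with 26 and 41 tags, it was 1.16 (0.691 to 1.97). With the division by fragment length both of these intervals include 1, and equal density is not shown by that. Without the division both ratios were higher, and no intervals were computed for them, so whether they would include 1 is not shown.

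The 10 pairs with the largest ratios ran from rank 38 to rank 411 in control and held 23 to 47 tags there. The first was on chromosome 17 at 46782870 to 46783699, with 27 tags in control and 127 in starvation and a ratio of 3.45 (2.27 to 5.44). This starvation peak spans 2 control peaks, and the summit of the one with 27 tags lay 454 bp from its own. With the other, at 46783190 to 46783648, whose 63 tags peaked 9 bp from the starvation summit, the ratio was 1.48 (1.09 to 2.03), below those of the 10 pairs. Gabarap, which encodes an autophagosome membrane protein, came second with 34 and 152 tags (3.28, 2.25 to 4.91). The third was on chromosome 17 at 33961124 to 33961679 with 29 and 123 tags (3.11, 2.06 to 4.84). The other 7 included Atf4 and had ratios of 2.37 to 2.74.

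**Figure D5:**
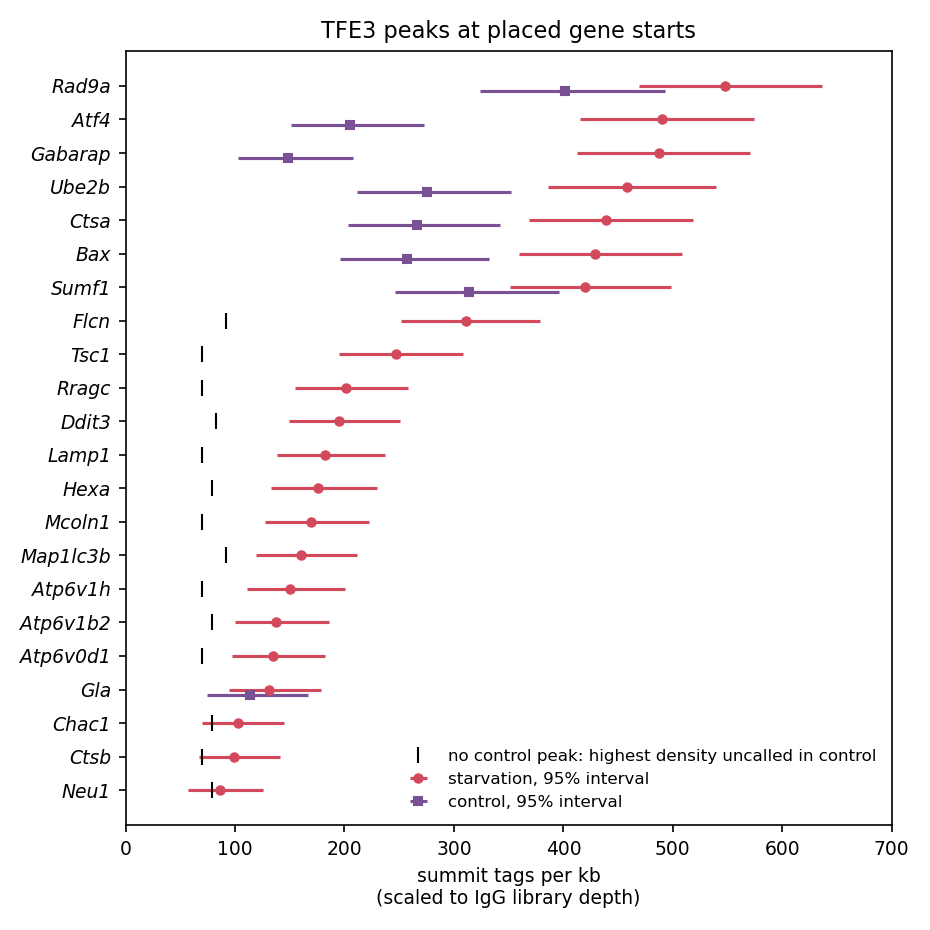
Summit tag density (x axis, tags per kb scaled to IgG depth, bars are 95% Poisson intervals) at the 22 placed genes in starvation and, where a control peak was called, in control. The 14 genes with no control peak carry a tick at the highest density that control would have left uncalled by the computed limit. Rad9a is highest in both libraries, and the intervals of Chac1, Ctsb and Neu1 reach their ticks.

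The 30 shared pairs with a ratio below 1 were close to the rest in control peak height and lower in starvation. Their median control fold was 6.98, against 6.83 in the 172 pairs above 1, and the median control tag number was 34.5 in both. In starvation they had a median of 32 tags against 84. The median width of their control peaks was 293.5 bp, against 209 bp in the rest, and that of their starvation peaks 270 bp, against 395.5 bp. The groups were formed by the ratio, so these values are a description. They also depend on the division by fragment length, without which 19 pairs were below 1. The 5 lowest ratios, 0.384 to 0.464, were at control ranks 17 to 62 and starvation ranks 1150 to 1672. They lay on chromosomes 14 (from 17790320 in control, 44 and 23 tags in control and starvation), 16 (from 26211517, 53 and 28), 11 (from 110742400, 51 and 28), 2 (from 117424034, 53 and 32) and 10 (from 37142388, 38 and 24). In the same order, the summits of a pair lay 66, 27, 200, 14 and 88 bp apart, so tags were not counted at the same base. The median summit gap was 29.5 bp in the 30 pairs below 1 and 17 bp in the 172 above. With the division by fragment length, the ratio interval of each of these 5 pairs lay below 1. Without it the 5 ratios were higher but still below 1, and no intervals were computed for them.

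The 10 lost sites of highest score ran from rank 6 to rank 61 in the control list, with 2 of them in its top 10. On chromosome 7 at 91477693 to 91478319 the control summit held 72 tags (56.3 to 90.7) with a fold of 12.0, rank 6 in the control list. Up to 24 tags would have gone uncalled in starvation, and 98.1 would have been expected at equal density. Chromosome 13 at 25716529 to 25717134, rank 8, had 61 tags (46.7 to 78.4) and a fold of 13.6, and its density was 4.37 times the highest uncalled one. A pair of lost peaks on chromosome 15, at 11758741 to 11759226 with 62 tags and at 11760448 to 11760887 with 57 tags, lay next to each other, and both were among the 10 lost peaks of highest score. The other 6 were on chromosomes 18 (from 69864245), 15 (from 43456600), 10 (from 4378616), 3 (from 108562592), 14 (from 121638651) and 6 (from 17616284), with 39 to 51 tags. No placed gene lay at any of the 10. Of the 220 lost peaks 15 had another control peak within 5 kb, against 5 of the 202 shared control peaks. The local IgG background was at the genome-wide level for 46 of 220 lost peaks (20.9%, 15.7 to 26.9) and 56 of 202 shared control peaks (27.7%, 21.7 to 34.4). For gained peaks it was 696 of 1502 (46.3%, 43.8 to 48.9) and for shared starvation peaks 61 of 201 (30.3%, 24.1 to 37.2).

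The lost share of control peaks was not tested between chromosomes and rests on few peaks in each. On chromosome 11, which had the most starvation peaks (136), 3 of 22 control peaks were lost (13.6%, 2.91 to 34.9), and on chromosome 8 it was 6 of 19 (31.6%, 12.6 to 56.6). On chromosome 3 it was 24 of 36 (66.7%, 49.0 to 81.4), on chromosome 13 19 of 29 (65.5%, 45.7 to 82.1) and on chromosome 15, with the most control peaks (40), 26 of 40 (65.0%, 48.3 to 79.4). The gained share was more even, from 79.4% on chromosome 12 to 94.4% on chromosome 16. The starvation list was 4.06 times as long as the control list in all, 6.18 times on chromosome 11 and 2.48 times on chromosome 15.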

How the data were processed

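TFE3 ChIP-seq libraries of control and starved fibroblasts, 1 each, were compared through their peak lists. Per the submitters' processing notes, Bowtie, MACS2 and mm9 were used, with no version or role given. Calling was per library, since each peak's name gives 1 TFE3 library and the negative control. For each peak the authors deposited a score, which is 10 times the −log10 q cut to a whole number, a fold enrichment as a linear ratio, the −log10 of the p-value and of the q-value, and the distance of the summit from the peak start. The tunicamycin list was only counted.

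Tags were recovered with MACS2's formulas, which the labels do not record: 1 is added to both scaled tags and background before the fold is taken, and p is the Poisson probability of more tags than seen. One whole number met p within 0.004 for 422 of 422 control and 1703 of 1712 starvation peaks, and the other 9 were left out of tag values. The scale of 1 tag was 0.650 and 0.618, which makes the libraries 1.54 and 1.62 times as deep as IgG. Fragment length was taken as the shortest peak. Recovery and overlap were tested on simulated data. The simulated folds and p-values were made with the same formulas, so this checks the code and not whether the formulas apply to the authors' values. Shares carry 95% Clopper-Pearson intervals.

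Members and gene lists were chosen with earlier results of these data known. The rule named the 10 gained and 10 lost peaks of highest score, the 10 largest and 5 smallest density ratios and the 5 best mean ranks among shared pairs. Alternatives covered the overlap rule, score threshold, list length, merging and background, and, added after seeing the data, the treatment of fragment length and of background in the call limit. A planned share of peaks near gene starts needed an mm9 annotation and was not run. A result at 1 placed gene is not reported here. Coordinates are 1-based. Python 3.11.15 was used with scipy 1.17.1, numpy 2.4.6, matplotlib 3.10.9 and pandas 2.3.3.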

Additional observations from a re-analysis of the deposited data

How the results depend on the processing

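No paired analysis was possible because each condition had 1 library and no test was made. Results were recomputed 53 times with 1 choice changed, and 12 of the values moved: counts by over 1.5 times, shares out of their interval or medians out of their interquartile range. Gained peaks numbered 630 at a score of at least 108 and 261 with both lists at 422 peaks, and lost peaks 92 at a score of at least 68 and 36 at 108 or more. These settings shorten the lists by construction. Control peaks were found in starvation at 33.6% under a reciprocal overlap of 50%, 57.6% and 67.3% at the lower and higher score, and 38.4% at equal length. Starvation peaks were found in control at 8.29% (reciprocal overlap), 10.2% (lower score) and 38.2% (equal length). The median density ratio of shared pairs was 2.06 without division by fragment length. Widening the match to 500 bp, requiring summits within 100 bp, merging peaks within 500 bp, and keeping peaks at the genome-wide background moved none of the results they were run on. Depth limits what a missing peak shows: 51 of 1502 gained peaks would not have reached the computed control limit at equal density, and the real limit can be higher.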
